A study of Mus musculus with 60 samples.

Results

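The genes of cholesterol synthesis and of SREBP2, the transcription factor that controls that synthesis, were followed in mouse liver after total-body exposure to heavy ions. There were 29 genes of the 38204 in the data, and all 29 had enough signal to be tested at every time. They were listed by name for their known roles, with earlier results of these data known. Total RNA of the left liver lobe, depleted of ribosomal RNA, was sequenced from male C3H/HeNCrl mice, an inbred strain prone to liver tumours, which were 8 to 10 weeks old at exposure. One group was non-irradiated or sham irradiated, and the other 3 groups received 0.2 Gy of 56Fe, 16O or 28Si ions. Livers were taken 1, 2, 4, 9 and 12 months later from 3 mice per group and time, which made 60 libraries. Different mice were used at each time, and the 3 controls of a time served the comparisons with all 3 ions. After exposure the animals were shipped to another facility and spent 1 month in quarantine, and food was freely available. The hour of tissue collection is not given in the sources used here.

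Cholesterol is built from acetyl-CoA in the endoplasmic reticulum and the cytosol. The early steps give mevalonate and then isoprenoid units, which are joined to squalene; squalene is closed to lanosterol, and lanosterol is trimmed and reduced to cholesterol. When sterols are plentiful, SCAP is held in the endoplasmic reticulum by INSIG1 or INSIG2 and keeps SREBP2 there. When sterols are scarce, SCAP carries SREBP2 to the Golgi, the proteases encoded by Mbtps1 and Mbtps2 release its active part, and that part raises transcription of the whole pathway. The liver is a main site of this synthesis, where it is known to follow feeding and the time of day.

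Depth was 11412665 to 40568208 mapped read pairs per library. The values are RPKM, read numbers corrected for the length of the transcript and the depth of the library, summed over the transcripts of a gene. RPKM are printed as deposited, whereas fold changes were fitted after the libraries had been scaled to each other, so a ratio of printed values can differ somewhat from the fold change. The share of mapped reads that fell in transcripts was 43.4% to 66.4% in the 24 libraries of 1 and 2 months and 56.0% to 88.4% in the 36 later ones. Comparisons of ions with controls were made within a time. The verbs rose and fell are kept for genes with a limma adjusted p of 0.05 or less, the adjustment covering all genes tested. The 7 hepatocyte markers in the table summed to 20514 to 30434 RPKM in the 12 libraries of 1 month. Kupffer cell markers summed to 40.3 to 73.1 RPKM, endothelial markers to 40.5 to 55.9, stellate markers to 49 to 72.1 and erythroid markers to 28.7 to 94.6. The 8 cholangiocyte markers summed to 10.3 to 15.9 RPKM in control mice, 15.9 to 19.3 after 56Fe, 14.5 to 18.3 after 16O and 11.95 to 22.9 after 28Si. The 7 lymphocyte markers summed to 0.499 to 0.513 RPKM in control mice, 1.04 to 1.20 after 56Fe, 0.297 to 0.773 after 16O and 0.592 to 0.995 after 28Si, so the 56Fe and 28Si mice lay above the controls. The part of these markers in the results of 1 month was not tested. Limma called 0 of the tested markers against the controls at 1 month with any ion (0 to 2 per list at an unadjusted p under 0.05), and no lymphocyte marker had enough signal to be tested. In RNA of whole tissue, fewer cells of a type and less RNA per cell cannot be told apart.

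The promoters of 4 genes are shown because the results below turn on them: Hmgcs1 and Mvd of the early pathway and both INSIG genes. The sequences are those of RefSeq on GRCm38.p6, read 5′ to 3′ on the strand of the gene and ending before the first annotated exon in the window. Capitals mark CCAAT, the box bound by NF-Y, on either strand (ATTGG when read on the other strand) and, in Hmgcs1, the SREBP site TCACNCCAC. Hmgcs1 lies at chr13:119690379-119708260 on the plus strand, Mvd at chr8:122433601-122443422 on the minus strand, Insig1 at chr5:28071363-28078662 on the plus strand and Insig2 at chr1:121304353-121332589 on the minus strand. Insig2 has several starts, and the windows of the 2 transcripts that carried most of its RPKM are given. The downstream start is that of ENSMUST00000003818 with 53.6% of the RPKM of the gene, and the upstream start that of ENSMUST00000071064 with 37.3%.
Hmgcs1, chr13:119690101-119690350 (plus strand): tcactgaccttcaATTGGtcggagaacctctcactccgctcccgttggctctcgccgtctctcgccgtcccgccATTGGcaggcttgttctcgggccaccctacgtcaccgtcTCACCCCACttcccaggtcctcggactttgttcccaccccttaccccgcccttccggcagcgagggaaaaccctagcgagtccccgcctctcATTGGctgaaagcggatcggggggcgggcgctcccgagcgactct
Mvd, chr8:122443423-122443672 (minus strand): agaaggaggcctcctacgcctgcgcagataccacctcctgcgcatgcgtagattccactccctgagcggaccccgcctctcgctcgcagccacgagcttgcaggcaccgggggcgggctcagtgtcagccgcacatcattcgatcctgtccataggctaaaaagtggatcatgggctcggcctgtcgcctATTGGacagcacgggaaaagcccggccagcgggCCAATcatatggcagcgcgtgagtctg
Insig1, chr5:28071162-28071362 (plus strand): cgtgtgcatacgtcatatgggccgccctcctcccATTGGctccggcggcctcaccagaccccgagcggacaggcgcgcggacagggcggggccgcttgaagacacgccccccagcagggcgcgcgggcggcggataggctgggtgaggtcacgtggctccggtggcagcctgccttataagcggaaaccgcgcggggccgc
Insig2 upstream start, chr1:121332590-121332839 (minus strand): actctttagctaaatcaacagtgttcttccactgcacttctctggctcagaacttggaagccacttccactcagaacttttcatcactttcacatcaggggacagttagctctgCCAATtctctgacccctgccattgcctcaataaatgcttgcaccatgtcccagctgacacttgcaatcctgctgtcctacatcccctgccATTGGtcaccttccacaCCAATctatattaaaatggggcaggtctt
Insig2 downstream start, chr1:121328025-121328274 (minus strand): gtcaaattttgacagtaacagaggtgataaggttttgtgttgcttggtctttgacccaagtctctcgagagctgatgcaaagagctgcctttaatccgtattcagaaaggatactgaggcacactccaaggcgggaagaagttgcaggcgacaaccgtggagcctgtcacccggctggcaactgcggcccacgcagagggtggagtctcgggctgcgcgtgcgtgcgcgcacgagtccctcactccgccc

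The letters TCACNCCAC, searched on both strands of the 300 bases from 250 before to 50 after a start, were found in 1 of the 24 member genes that had a RefSeq window, Hmgcs1, where the match began 137 bases before the start. They were found in 1.498% of the genes tested at 1 month. CCAAT was found in 20 of the 24 (83.3%) and in 43.4% of the genes tested. The GC box GGGCGG was found in 21 of the 24 (87.5%) and in 68.0% of the genes tested. Each motif was counted separately, also where its match shared bases with that of another, and a match is a description of the window only. In the windows of Insig2, CCAAT was present at the upstream start and not at the downstream one, whereas the Mvd and Insig1 windows held CCAAT without the SREBP letters. Sqle, Fdps, Fdft1, Stard4 and Npc1 had no window.

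At 1 month, expression of the cholesterol pathway was lower in the livers of 56Fe and 16O mice than in control livers, and not in those of 28Si mice, where Insig2 was raised instead. After 56Fe, 14 of the 29 genes fell and 0 rose, with 0.790% of all genes tested called lower in that comparison. After 16O, 7 of 29 fell and 0 rose, against 0.784% of all genes. After 28Si, 0 of 29 fell and 1 rose, Insig2, against 0.136% of all genes called higher. The median log2 fold change of the 29 genes was -0.60 after 56Fe, where that of all genes tested was -0.06. It was -0.61 after 16O, where that of all genes was -0.01, and -0.04 after 28Si. At an unadjusted p under 0.05, limma gave 24 of the 29 after 56Fe (23 lower; 12.9% of all genes), 21 after 16O (all lower; 12.9% of all genes) and 2 after 28Si (12.7% of all genes). Limma-voom on estimated reads called 16 (1.95% of all genes), 15 (2.49%) and 1 (0.489%). After scaling, all 3 56Fe libraries lay below all 3 control libraries for 22 of the 29 genes, which was so for 13% of all genes. For 16O the count was 18, against 9.87% of all genes. For 28Si it was 2, against 8.54%. The 3 comparisons use the same 3 control mice, so the lower values after 56Fe and after 16O are not independent of each other. The 29 genes were chosen with earlier results of these data known. The shares of all genes set beside their counts are therefore a description and not a test.

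**Figure D1:**
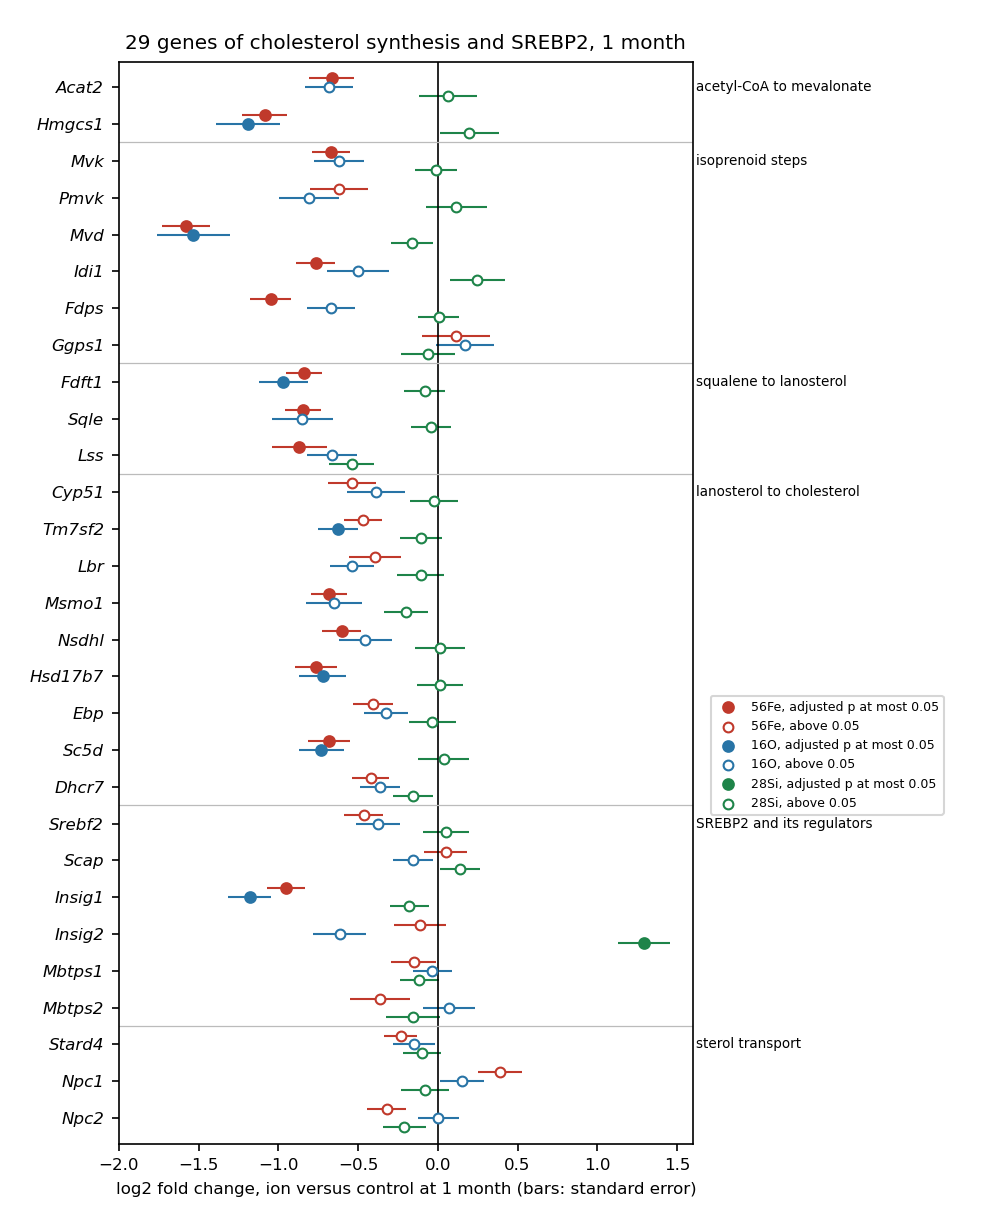
Log2 fold change of each of the 29 genes at 1 month (x axis) for 56Fe, 16O and 28Si against the 3 control mice, ordered by step of the pathway (y axis). Points are limma's estimates, bars their standard errors, and filled points passed an adjusted p of at most 0.05: 14 genes for 56Fe, 7 for 16O and 1 for 28Si.

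By step, after 56Fe, both genes from acetyl-CoA to mevalonate fell (median log2 fold change -0.87), as did 4 of 6 isoprenoid genes (-0.72), 3 of 3 genes from squalene to lanosterol (-0.85) and 4 of 9 genes from lanosterol to cholesterol (-0.54). Of SREBP2 and its 5 regulators 1 fell (-0.26), and of the 3 sterol transport genes 0 did (-0.23). After 16O the counts were 1 of 2 (-0.94), 1 of 6 (-0.65), 1 of 3 (-0.85), 3 of 9 (-0.54), 1 of 6 (-0.26) and 0 of 3 (0.00). All 9 genes from lanosterol to cholesterol had negative estimates with both ions, whether or not they passed the test. Of all genes tested, 61.3% had negative estimates after 56Fe and 51.5% after 16O.

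Hmgcs1 encodes the cytosolic HMG-CoA synthase, which makes the substrate for mevalonate. Its level at 1 month was 72.4, 96.8 and 128 RPKM in control mice, 52.3, 44.9 and 43.7 after 56Fe, 34.5, 35.8 and 57.3 after 16O and 164, 91.6 and 102 after 28Si. All 6 56Fe and 16O libraries were below the lowest control, and the 28Si libraries overlapped the controls. The log2 fold change was -1.08 after 56Fe (SE 0.141, limma adjusted p = 0.0052) and -1.19 after 16O (SE 0.199, adjusted p = 0.0184). Acat2, the cytosolic thiolase that opens the pathway, had 18.4, 22.9 and 28.96 RPKM in control mice and 17.8, 13.3 and 13.97 after 56Fe, a smaller fall with libraries that nearly met. Over 65.6% of its main transcript Acat2 is nearly identical to other annotated genes, Acat3 and Tcp1 among them.

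The isoprenoid steps carried the largest fold change of the set. Mvd, mevalonate diphosphate decarboxylase, had 8.64, 10.04 and 10.2 RPKM in control mice, 3.53, 3.65 and 2.63 after 56Fe, 2.18, 3.12 and 4.74 after 16O and 9.38, 8.42 and 9.03 after 28Si. The 56Fe and 16O libraries were thus well apart from both the control and the 28Si libraries. The log2 fold change of Mvd was -1.58 after 56Fe (SE 0.152, limma adjusted p = 0.00112) and -1.53 after 16O (SE 0.231, adjusted p = 0.0123). Fdps makes farnesyl diphosphate, the branch point to sterols, and had 34.3, 40.3 and 50.96 RPKM in control mice, 23.7, 17.9 and 20.4 after 56Fe and 22.5, 22.9 and 31.8 after 16O. It fell after 56Fe, by 1.05 on the log2 scale (SE 0.128, limma adjusted p = 0.00427), while after 16O the estimate was -0.67 (adjusted p = 0.0551). Fdps shares near-identical sequence with other annotated genes over 87.7% of its main transcript, so its reads may be split with theirs. Idi1, which isomerises isopentenyl diphosphate, had 85.6, 99.0 and 136 RPKM in control mice and 61.2, 63.0 and 66.4 after 56Fe. These groups did not overlap, and the log2 fold change was -0.76 (SE 0.123, limma adjusted p = 0.0134). Of the remaining isoprenoid genes, the kinase gene Mvk fell after 56Fe (-0.67). The other kinase gene, Pmvk, and Ggps1, which leads away from sterols to geranylgeranyl diphosphate, were not called with any ion. Ggps1 was at 2.22 to 2.75 RPKM in control mice and 2.27 to 3.70 after 56Fe, with an overlap of the groups.

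Between farnesyl diphosphate and lanosterol, all 3 genes fell after 56Fe. Fdft1, squalene synthase, had 38.9, 42.2 and 50.8 RPKM in control mice, 28.9, 23.3 and 23.5 after 56Fe, 19.8, 18.3 and 28.7 after 16O and 54.0, 34.3 and 42.8 after 28Si. Its log2 fold change was -0.84 after 56Fe (SE 0.114, limma adjusted p = 0.00565) and -0.97 after 16O (SE 0.154, adjusted p = 0.0154). The highest irradiated library of these 2 ions was below the lowest control library. Over 70.6% of its main transcript Fdft1 is nearly identical to 2 other annotated genes, Gm6781 and Ctsb. Transcripts not annotated as protein-coding made up a median of 48.8% of the Fdft1 value at 1 and 2 months. With protein-coding transcripts only, the 16O call was lost (-1.26, limma adjusted p = 0.054). Sqle, squalene epoxidase, a step at which the pathway is controlled, had 28.9, 35.05 and 40.3 RPKM in control mice, 20.7, 19.7 and 18.6 after 56Fe and 14.6, 16.9 and 26.5 after 16O. The groups did not overlap with either ion. It fell after 56Fe by 0.85 on the log2 scale (SE 0.114, limma adjusted p = 0.00562), and the estimate after 16O was also -0.85 but with a wider error (SE 0.192, adjusted p = 0.0597). Lss, which closes the ring to lanosterol, had 15.7, 20.1 and 20.9 RPKM in control mice and 13.6, 8.09 and 10.6 after 56Fe. Its log2 fold change was -0.87 (SE 0.171, limma adjusted p = 0.0406). In the 28Si libraries Lss was also below every control, at 14.7, 11.5 and 14.4 RPKM, without passing the test (-0.54, limma adjusted p = 0.192).

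In the steps from lanosterol to cholesterol, Hsd17b7, a ketoreductase that acts on sterols demethylated at carbon 4, had 15.7, 16.9 and 24.1 RPKM in control mice, 12.1, 9.76 and 12.0 after 56Fe and 10.2, 9.67 and 13.5 after 16O. The log2 fold changes were -0.76 after 56Fe (SE 0.133, limma adjusted p = 0.0197) and -0.72 after 16O (SE 0.146, adjusted p = 0.0416), with no overlap of the groups. Msmo1, the methyl sterol oxidase, had 85.0, 102 and 121 RPKM in control mice and 64.0, 66.1 and 64.9 after 56Fe. These 3 libraries lay close together and below the controls, with a log2 fold change of -0.68 (SE 0.113, limma adjusted p = 0.0158). Sc5d, the sterol C5-desaturase, was the most abundant of these 9 genes at 1 month, with 149, 192 and 244 RPKM in control mice, 129, 127 and 111 after 56Fe, 106, 111 and 122 after 16O and 267, 170 and 187 after 28Si. It fell with both 56Fe and 16O, and the 16O value was -0.73 (SE 0.142, limma adjusted p = 0.0351). Tm7sf2, a sterol C14-reductase, had 43.9, 43.7 and 58.5 RPKM in control mice and 30.8, 25.9 and 35.7 after 16O, where it fell by 0.63 on the log2 scale (SE 0.126, limma adjusted p = 0.0385). The 4 genes that fell after 56Fe and are not given in full, Sc5d, Mvk, Acat2 and Nsdhl, had log2 fold changes from -0.68 to -0.60. Cyp51, Lbr, Ebp and Dhcr7, which carry out other reductions, demethylations and isomerisations of the sterol, were not called at 1 month with any ion.

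**Figure D2:**
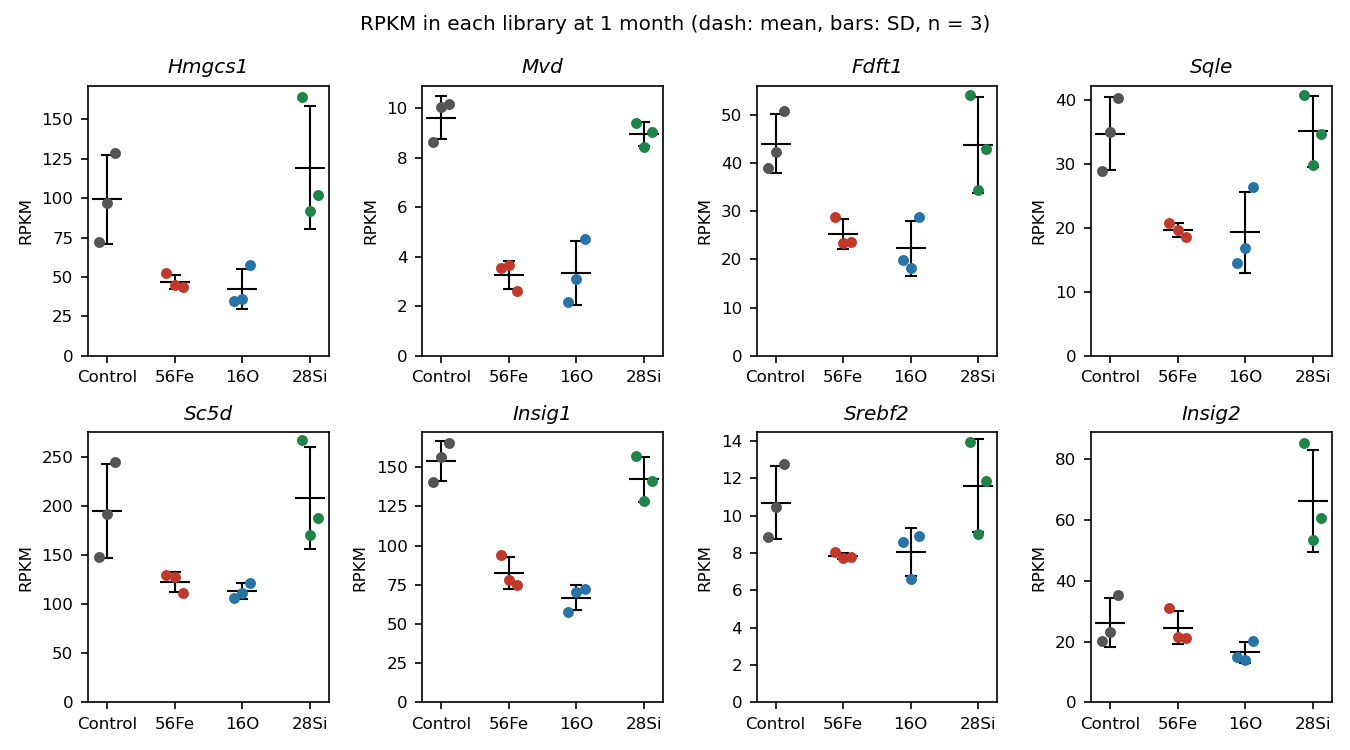
RPKM (y axis, from 0) of Hmgcs1, Mvd, Fdft1, Sqle, Sc5d, Insig1, Srebf2 and Insig2 in every library of 1 month (x axis: control, 56Fe, 16O and 28Si). Points are mice, dashes means and bars SD (n = 3). Mvd lies at 2.18 to 4.74 in the 56Fe and 16O mice and at 8.42 to 10.2 in the others, and Insig2 is highest in the 28Si mice.

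Among the regulators, Insig1, itself a target of SREBP2 and its inhibitor, moved most with 56Fe and 16O. It had 141, 156 and 165 RPKM in control mice, 93.9, 77.9 and 75.0 after 56Fe, 57.6, 70.7 and 72.1 after 16O and 157, 128 and 141 after 28Si. No 56Fe or 16O library came near the controls. The log2 fold change was -0.95 after 56Fe (SE 0.119, limma adjusted p = 0.00465) and -1.18 after 16O (SE 0.136, adjusted p = 0.00459). Srebf2, the gene of SREBP2, had 8.86, 10.5 and 12.7 RPKM in control mice and 8.05, 7.72 and 7.78 after 56Fe. All 3 were below the controls, but the log2 fold change of -0.47 did not pass (limma adjusted p = 0.103). Scap, the sterol sensor and escort of SREBP2, had 25.1, 29.3 and 37.2 RPKM in control mice and 37.2, 33.7 and 26.5 after 56Fe, with full overlap. The protease genes Mbtps1 and Mbtps2 were not called with any ion. Neither were the sterol carriers: Stard4, Npc1 and Npc2. Npc1, which moves cholesterol out of lysosomes, was at 13.8, 18 and 19.3 RPKM in control mice and at 27.3, 21.3 and 20.2 after 56Fe, above every control but not past the test (0.39, limma adjusted p = 0.258).

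Insig2, which also retains SCAP but is known in liver to be driven by signals other than SREBP2, behaved apart from the rest. It had 20.1, 23.04 and 35.3 RPKM in control mice at 1 month, 30.9, 21.6 and 21.2 after 56Fe, 15.04, 13.9 and 20.3 after 16O and 85.0, 53.2 and 60.5 after 28Si. Every 28Si library was above every other library of that time. The log2 fold change after 28Si was 1.29 (SE 0.161, limma adjusted p = 0.00887). It was -0.11 after 56Fe and -0.61 after 16O (limma adjusted p = 0.117 for 16O). Both transcripts whose start windows are printed above took part. ENSMUST00000003818 had 9.46, 11.5 and 16.5 RPKM in control mice and 42.2, 26.7 and 32.4 after 28Si. For ENSMUST00000071064 the values were 6.75, 5.85 and 12.7 in control mice and 35.7, 20.01 and 22.5 after 28Si.

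Of the 14 calls after 56Fe, 6 held when any 1 library was left out: Hmgcs1, Mvd, Fdps, Fdft1, Sqle and Insig1. The other 8 were lost without control replicate 2, 56Fe replicate 2 or 56Fe replicate 3, and 6 of them without 56Fe replicate 1. Lss was also lost without control replicate 1 and Acat2 without control replicate 3, and the limma adjusted p of the lost calls was 0.0511 to 0.234. With RPKM as deposited, without scaling, 6 genes were called after 56Fe and 4 after 16O. In a fit of all 60 libraries, Hmgcs1 (limma adjusted p = 0.0786) and Sqle (0.0813) were among the calls lost after 56Fe. Hmgcs1 was lost there after 16O too (0.108). After 16O, Mvd and Insig1 held without any 1 library. The other 5 were lost without control replicate 2, 16O replicate 1 or 16O replicate 2. Hsd17b7 and Tm7sf2 were also lost without control replicate 1 or 3 and Sc5d without 16O replicate 3, at limma adjusted p of 0.0546 to 0.173. The Insig2 call after 28Si was lost without control replicate 2 (limma adjusted p = 0.0568) or 28Si replicate 3 (0.0548), and with RPKM as deposited (0.103).

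The ions were also compared with each other directly. In 56Fe against 28Si at 1 month, 15 of the 29 genes were lower in the 56Fe mice and 0 were higher, with 6.41% of all genes called lower. In 16O against 28Si, 14 were lower and 0 higher, with 6.30% of all genes called lower. Mvd differed by -1.43 (SE 0.208, limma adjusted p = 0.00106) between 56Fe and 28Si and by -1.37 (SE 0.208, adjusted p = 0.000833) between 16O and 28Si. For Insig2 the differences were -1.41 (SE 0.174, limma adjusted p = 0.000307) and -1.90 (SE 0.174, adjusted p = 1.87e-05). Between 56Fe and 16O, limma called 0 of 29, with 0.321% of all genes called in either direction, 4 of the 29 at an unadjusted p under 0.05 (10.4% of all genes) and differences from -0.45 to 0.49. The largest of these, 0.49 for Insig2, had a standard error of 0.174 and a limma adjusted p of 0.322, so equality of the 2 ions was not shown. The mean of the 3 ions against control gave 5 genes that fell, with 0.364% of all genes called lower: Mvd (-1.10), Insig1 (-0.77), Lss (-0.70), Fdft1 (-0.64) and Fdps (-0.58). Of these Insig1 held without any 1 library.

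Genes outside the set moved at the same time. Of 15 genes of fatty acid synthesis, which the related factor SREBP1 drives, 5 fell after 56Fe (Acacb, Acly, Elovl6, Fasn and Thrsp) and 6 after 16O (Acly, Elovl6, Fasn, Gpam, Me1 and Scd1). All 15 had negative estimates with both ions, with a median log2 fold change of -0.70 after 56Fe and -0.58 after 16O. Of all genes tested, 61.3% had negative estimates after 56Fe and 51.5% after 16O. Fasn, fatty acid synthase, had 199, 245 and 243 RPKM in control mice, 136, 86.9 and 83.2 after 56Fe, 87.5, 130 and 108 after 16O and 149, 124 and 153 after 28Si. Its log2 fold change was -1.24 after 56Fe and -1.06 after 16O. After 28Si, 2 of the 15 fell, Srebf1 (-0.73) and Thrsp (-1.28), with a median of -0.40. Of 10 other targets of SREBP2, 0 passed limma's test after 56Fe (5 at an unadjusted p under 0.05), 1 fell after 16O (Acss2, -0.58) and 1 after 28Si (Por, -0.88). Of 13 tested genes of sterol efflux and ester formation, limma called 0 with each ion (0, 1 and 5 at an unadjusted p under 0.05 after 56Fe, 16O and 28Si). Of 14 bile acid genes, 2 fell after 56Fe, Cyp7a1 (-0.98), the rate-limiting enzyme of bile acid synthesis, and Nr0b2 (-1.80), a repressor of it. Limma called 0 of the 14 after 16O and 28Si (5 and 6 at that unadjusted p).

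Clock and fasting genes, whose levels in liver follow the hour and the last meal, also differed between the groups of 1 month. Of 16 clock genes tested, 0 passed limma's test after 56Fe (6 at an unadjusted p under 0.05), 1 fell after 16O (Nr1d1, -0.76), and after 28Si 1 rose (Arntl, 1.87) and 6 fell (Ciart, Dbp, Per1, Per2, Per3 and Tef). Dbp, an output gene of the clock, had 42.1, 49.2 and 48.6 RPKM in control mice, 77.1, 73.1 and 63.5 after 56Fe, 67.5, 65.3 and 67.1 after 16O and 15.2, 13.7 and 16.9 after 28Si. The 17 clock genes in the table summed to 200 to 226 RPKM in control mice, 231 to 297 after 56Fe, 240 to 277 after 16O and 123 to 146 after 28Si, with no gene of the list at 0. The 28Si mice thus stood below and the 56Fe and 16O mice above the controls in this sum, in which the most abundant genes weigh most. Not every gene of the list followed it. Arntl was at 0.635 to 0.760 RPKM in control mice and 2.31 to 3.80 after 28Si. Clock was at 5.86 to 6.11 in control mice and 8.71 to 10.9 after 28Si. Both were below every control after 56Fe and 16O. Among 12 fasting genes, Cyp4a10 fell after 56Fe (-1.99) and after 16O (-2.33), where Cyp4a14 fell too (-3.07) and Lpin1 rose (1.24); 0 passed limma's test after 28Si (4 at an unadjusted p under 0.05). In the direct comparison of 56Fe with 28Si, 12 of the 16 clock genes were called (10 higher, 2 lower), and in that of 16O with 28Si 15 were (11 higher, 4 lower). Of all 11539 genes tested, 344 were called higher and 740 lower in the former, and 669 higher and 727 lower in the latter. Dbp differed by 2.22 and Arntl differed by -2.46 on the log2 scale in the former. Of the 12 fasting genes 3 were lower in 56Fe than in 28Si mice, and 5 were lower and 1 higher in 16O than in 28Si mice. The part of hour of collection and feeding state in the values of the cholesterol genes was not tested.

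From 2 months on, 2 calls were made among the 29 genes in the 12 comparisons of an ion with control. At 2 and 12 months none was called with any ion, and in the 10 comparisons from 2 months on without a call, limma-voom called 0 and limma gave 0 to 6 genes at an unadjusted p under 0.05, where 2.13% to 14.9% of all genes were. The lowest limma adjusted p among them was 0.186, and the medians of the 29 genes ran from -0.25 for 16O at 12 months to 0.20 for 16O at 4 months. For 16O at 4 months 26 of the 29 estimates were positive, while 45.4% of those of all genes were negative. At that unadjusted p were 6 genes, all higher (6.12% of all genes). For 28Si 26 were negative at 2 months (65.7% of all genes). At 12 months 6 were at that unadjusted p, all lower (7.21%). Between 56Fe and 16O, limma called 0 at 4 and 12 months. At that unadjusted p were 12 (11 lower after 56Fe) and 10 (all higher), against 6.02% and 3.07% of all genes. Against control at 12 months, limma called 0 for 16O, with 4 at that unadjusted p, where 2.13% of all genes were. Of the 29 estimates 27 were negative, as were 53.3% of those of all genes. After scaling, 10 genes lay below every control library in all 3 16O libraries, against 4.87% of all genes. These were Acat2, Mvk, Idi1, Fdft1, Lss, Msmo1, Nsdhl, Sc5d, Scap and Mbtps2. Idi1 had 117, 125 and 168 RPKM in control mice of 12 months and 74.8, 99.1 and 80.1 after 16O, with a log2 fold change of -0.59 (limma adjusted p = 0.99). The library of 16O replicate 2 of 12 months held the lowest of all 60 values for Sc5d, Scap, Stard4 and Npc1, at 78.1, 15.9, 13.4 and 9.33 RPKM. Without it, 15 of the 29 genes lay below every control library, against 11.2% of all genes. Leaving out an irradiated library can only keep or raise such counts. Whether the effect at 1 month differed from that at 2 months was tested directly: limma called 0 of 29 for 56Fe, with 15 at an unadjusted p under 0.05, all of them higher at 2 months, and a median change of 0.52, while 8.15% of all genes were at that unadjusted p and their median change was 0.07. For 16O it called 0, with 7 at that unadjusted p and a median of 0.35, against 6.78% and 0.02 for all genes.

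**Figure D3:**
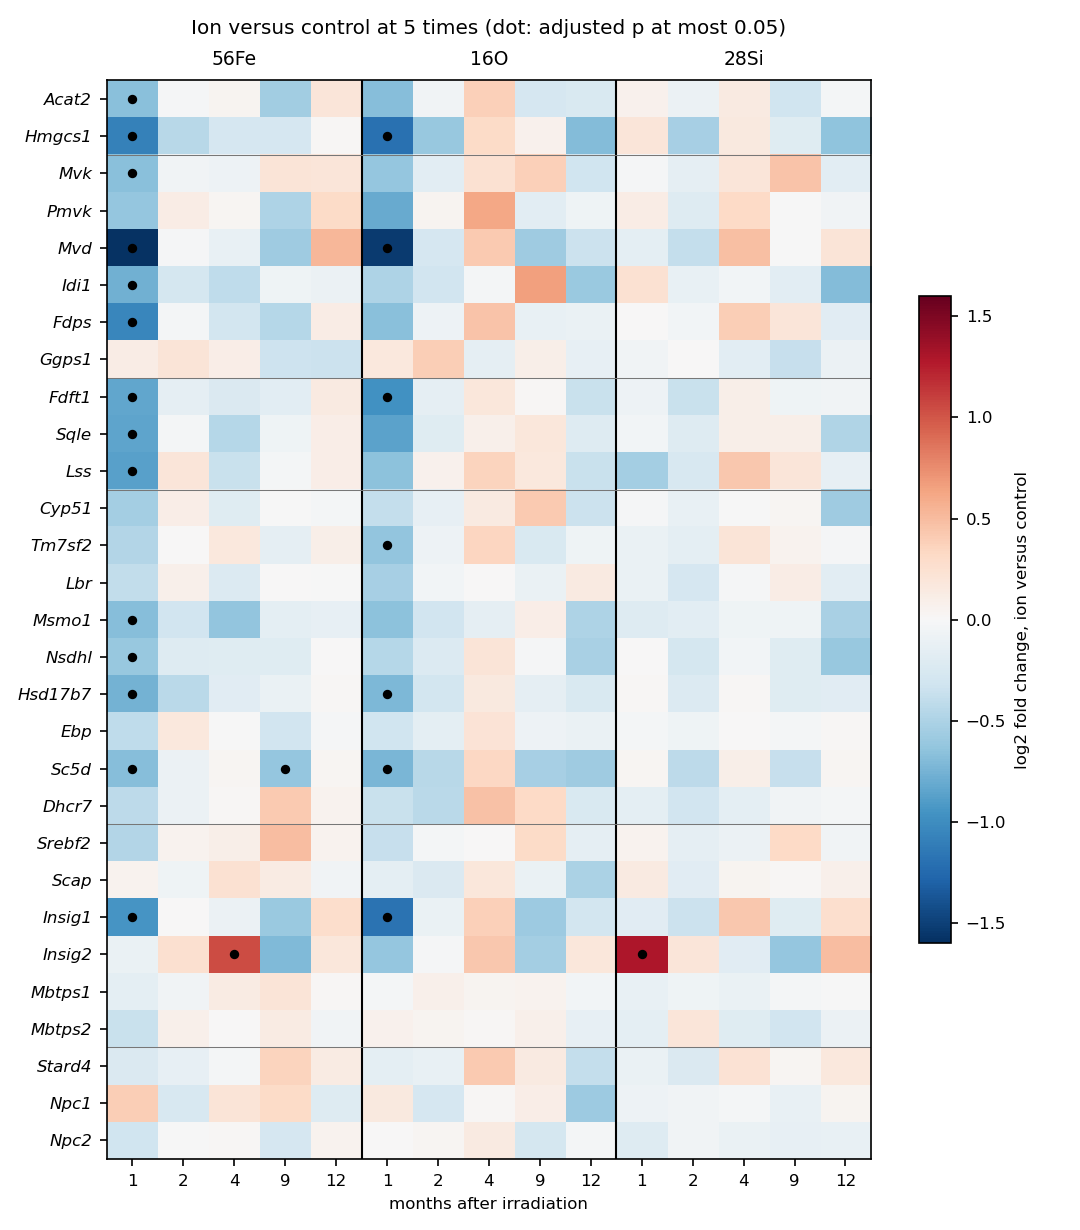
Log2 fold change of the 29 genes (y axis, in order of the pathway) in 56Fe, 16O and 28Si mice against the controls of the same time at 1, 2, 4, 9 and 12 months (x axis). Colour gives the log2 fold change and dots mark genes at a limma adjusted p of at most 0.05, of which 22 lie at 1 month, 1 at 4 months and 1 at 9 months.

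The 2 later calls were single genes in 56Fe mice. At 4 months Insig2 rose, with 0.213% of all genes called higher. It had 78.9, 76.2 and 84.6 RPKM in control mice, 171, 179 and 138 after 56Fe, 127, 86.3 and 112 after 16O and 72.3, 52.1 and 77.3 after 28Si. The 56Fe libraries were above all others of that time. The log2 fold change was 1.04 (SE 0.12, limma adjusted p = 0.0147). It was lost without 56Fe replicate 1 (limma adjusted p = 0.0539) or replicate 2 (0.0814). Both main transcripts were above the controls in all 3 56Fe libraries, which was not tested. ENSMUST00000003818 had 43.5, 43.7 and 49.4 RPKM in control mice and 92.7, 97.3 and 68.4 after 56Fe, and ENSMUST00000071064 had 26, 29.1 and 29.6 and then 70.8, 72.7 and 61.05. Against 28Si, 56Fe was higher at 4 months by 1.24 (SE 0.162, limma adjusted p = 0.00316; 0.611% of all genes called higher). At the same time the clock genes Arntl (2.06) and Clock (0.76) and the fasting genes Fgf21 (2.47) and G6pc (1.43) rose and Lpin1 fell (-0.91) in 56Fe mice, as did Cyp7a1 (-1.97) and the SREBP2 targets Aacs (-1.21) and Por (-0.94). In 56Fe against 28Si of that time, Arntl (1.70), Clock (0.66) and Fgf21 (1.75) were higher and Ciart (-1.78), Aacs (-1.38), Cyp7a1 (-1.49) and Thrsp (-1.24) lower. The part of these genes in the Insig2 values was not tested.

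At 9 months Sc5d fell after 56Fe, with 2.30% of all genes called lower. It had 268, 338 and 270 RPKM in control mice, 186, 198 and 192 after 56Fe, 243, 170 and 209 after 16O and 245, 184 and 243 after 28Si. The log2 fold change was -0.62 (SE 0.124, limma adjusted p = 0.0383), and this call was lost without any library but control replicate 3 (limma adjusted p = 0.0544 to 0.146). In the same comparison the fasting genes Pck1 (0.93) and Lpin1 (1.01) rose and Fgf21 (-2.20) and Cyp4a10 (-2.29) fell, and of fatty acid synthesis Elovl5 (-1.20), Gpam (-1.19) and Thrsp (-1.46) fell. Por (0.99) and Scarb1 (0.59), a receptor that takes up cholesterol from HDL, rose, and Cyb5r3 (-0.58) and Akr1d1 (-0.74) fell. The part of these genes in the Sc5d value was not tested. Insig2 at 9 months was at 152, 142 and 127 RPKM in control mice, 71.5, 66.7 and 137 after 56Fe, 102, 120 and 76.0 after 16O and 89.8, 71.1 and 113 after 28Si. The estimates were negative with each ion, at -0.70, -0.55 and -0.62, and none passed (limma adjusted p = 0.0908, 0.193 and 0.275). The effect of 56Fe on Insig2 changed by -1.76 from 4 to 9 months (SE 0.355, limma adjusted p = 0.00534), with 0.430% of all genes changed in that direction, and this held without any 1 library. The effect of 56Fe on clock and fasting genes changed in the same interval, by -2.71 for Arntl, 2.41 for Ciart, -4.66 for Fgf21, -2.77 for Pdk4 and 1.89 for Lpin1. Among the other lists it changed by 1.91 for Por, -1.68 for Elovl5 and -2.25 for Scd1. The part of these genes in the Insig2 change was not tested.

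**Figure D4:**
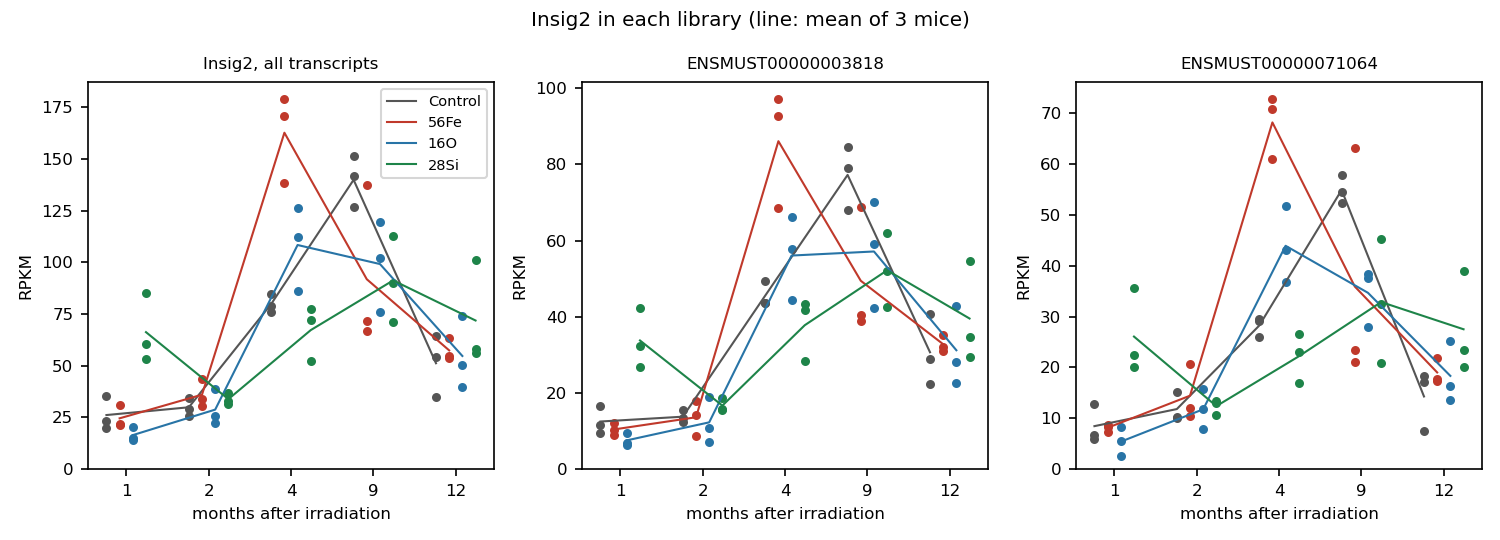
RPKM of Insig2 (y axis) in each mouse at 1, 2, 4, 9 and 12 months (x axis) for control, 56Fe, 16O and 28Si groups. The 28Si mice are highest at 1 month (53.2 to 85.0) and the 56Fe mice at 4 months (138 to 179), while at 9 months the control mean is the highest, with controls at 127 to 152 and 1 56Fe mouse at 137.

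In control mice 11 of the 29 genes were called between 2 and 4 months, a share close to the 36.2% of all genes called in that comparison. Of these 10 rose, with 21.5% of all genes called higher, and 1 fell, with 14.7% of all genes called lower. The genes that rose were Acat2, Pmvk, Fdps, Tm7sf2, Msmo1, Hsd17b7, Ebp, Insig1, Insig2 and Npc2, with log2 fold changes from 0.49 for Hsd17b7 to 1.05 for Insig2. Without control replicate 1 at 4 months 6 of the 11 calls were left: Fdps, Tm7sf2, Ebp, Dhcr7, Insig2 and Npc2. Tm7sf2, for example, had 42.8, 35.1 and 45.2 RPKM at 2 months and 95.4, 88.7 and 85.1 at 4 months. Part of this ratio was removed by the scaling, which left a log2 fold change of 0.76 (SE 0.144, limma adjusted p = 5.83e-05). Insig2 fell from 9 to 12 months, from 152, 142 and 127 to 64.4, 34.7 and 54.4 RPKM, with a log2 fold change of -1.51 (limma adjusted p = 0.00081) and 1.24% of all genes called lower. That call was lost without control replicate 2 at 12 months (limma adjusted p = 0.0601). Between 1 and 2 months and between 4 and 9 months limma called 0 of the 29, with 26 and 158 of the 12788 genes tested called. At an unadjusted p under 0.05 there were 7 members between 1 and 2 months, all lower, where 1232 of the 12788 genes were. Between 4 and 9 months there were 6 members at that unadjusted p, which are not read as a result about these genes. Age, housing and the make-up of the libraries cannot be told apart in these comparisons.

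The gene that fell from 2 to 4 months was Dhcr7, at chr7:143823145-143848410, whose product reduces 7-dehydrocholesterol to cholesterol. It had 49.7, 40.1 and 50.0 RPKM in control mice at 2 months and 27.7, 26.1 and 22.2 at 4 months, a log2 fold change of -1.25 (SE 0.255, limma adjusted p = 0.000138). The fall was not shared by all of its transcripts. ENSMUST00000145471, annotated as a target of nonsense-mediated decay, was at 2.02 to 16.2 RPKM in all 24 libraries of 1 and 2 months and listed at 0 in all 36 later ones. The coding transcript ENSMUST00000207143 went from a median of 14.96 to 6.53 RPKM. Another coding transcript, ENSMUST00000124340, had a median of 12.8 RPKM in the earlier libraries and 15.3 in the later ones. Idi1 held a similar case, in which ENSMUST00000177447 had a median of 40.6 RPKM before and 2.21 after. Transcripts annotated as non-coding made up a median of 56.1% of the Lss value at 1 and 2 months and 20.4% later, and 59.5% and 13.9% of the Mbtps1 value. The part of library make-up in these differences was not tested.

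**Figure D5:**
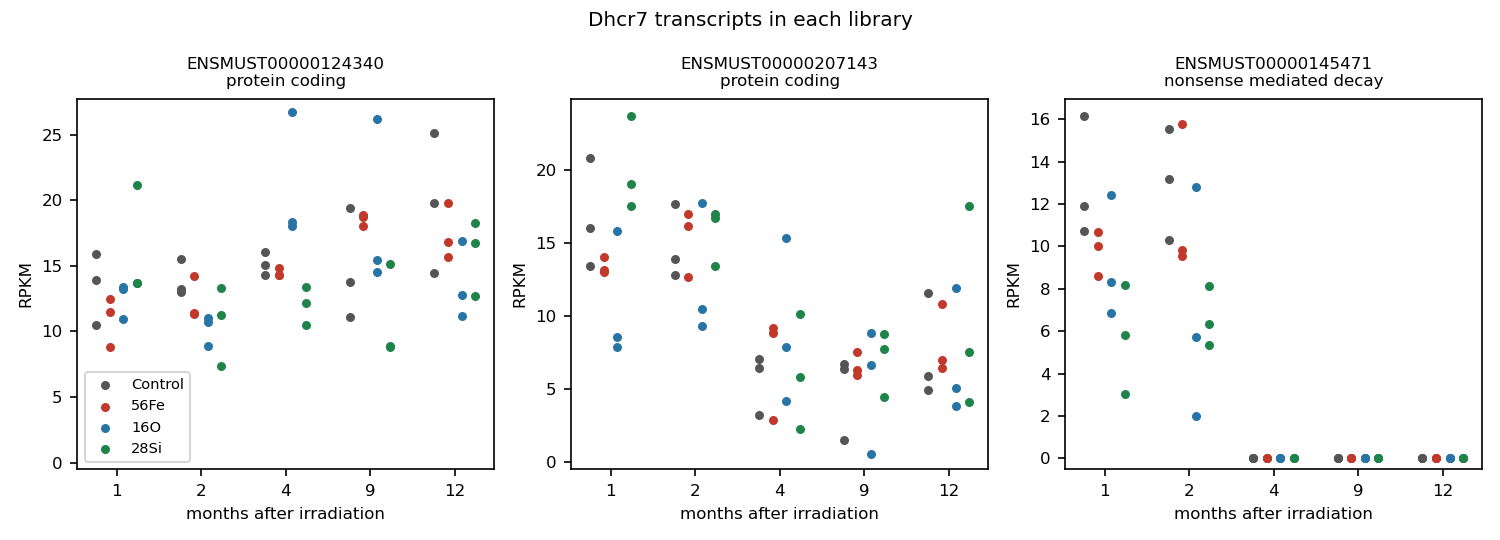
RPKM of transcripts of Dhcr7 (y axis) in every library against time in months (x axis). The transcript ENSMUST00000145471 lies at 2.02 to 16.2 in all 24 libraries of 1 and 2 months and at 0 in all 36 libraries of 4, 9 and 12 months.

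Over all 60 libraries the members spanned a wide range of levels, and RPKM allow them to be set side by side because they are per length. The highest medians were those of Sc5d (192 RPKM), Insig1 (173), Msmo1 (116) and Idi1 (107), and the lowest those of Mbtps2 (2.22), Ggps1 (2.83), Lbr (4.45) and Mvd (6.93). The order at the top depends on the libraries pooled. In the 24 libraries of 1 and 2 months Sc5d (141) was above Insig1 (101) and Idi1 (94.4) above Msmo1 (82.7), and in the 36 later ones Insig1 (238) was above Sc5d (223) and Msmo1 (143) above Idi1 (119).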

How the data were processed

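RNA of the left liver lobe of 60 mice in 20 groups of 3 was sequenced in 50-base pairs after removal of ribosomal RNA. The authors mapped the reads in CLC Genomics Workbench to GRCm38 with the Ensembl annotation and deposited RPKM, a measure corrected for transcript length and sequencing depth, for 123811 transcripts; their own tests used raw counts. The labels gave group, time and replicate number, and 0 columns of other samples were present. Columns of group means that the authors deposited were not used. The 29 genes, the gene lists and the tests were chosen with earlier results of these data known.

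RPKM of the transcripts of a gene were summed. Scaling between libraries used a trimmed mean of log ratios without weights (30% of M and 5% of A values trimmed), with factors of 0.750 to 0.965 at 1 and 2 months and 0.979 to 1.22 later in a fit of all 60 libraries. A gene was kept if 3 or more libraries of the fit had 0.5 RPKM or more, and log2(RPKM + 0.1) was fitted in limma 3.58.1 (R 4.3.3; empirical Bayes with trend, Benjamini-Hochberg adjustment over all genes tested). A fold change on the log2(RPKM + 0.1) scale understates that of genes with low RPKM. For an ion against control the fit held the 6 libraries of both groups at that time. Ions against each other and their mean against control were fitted within a time (12 libraries), and times and changes of effect over all 60 libraries. Each p-value sets a difference against the spread between the 3 mice of a group, pooled over all groups of the fit and moderated across genes.

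Depth, read from the steps between low values, was 11412665 to 40568208 read pairs per library (median 18891346), and 99.8% to 100.0% of those values were whole within 0.02 of a read; limma-voom used reads estimated in this way, with a minimum of 10 reads. Spearman correlations between libraries were 0.845 to 0.991, and no library pair was treated as a duplicate. Members called in a comparison with control were given in full up to 10 per comparison, the largest fold change first. A gene of the lists was named with a change only if it was called in that comparison; not all that were called are named. Markers of 7 cell types were summed per library. Promoter windows came from RefSeq (GRCm38.p6), where 24 of 29 genes matched, and positions of genes and transcripts from the GENCODE annotation of the same build. At 95% identity or more, 16 of the 29 main transcripts shared no sequence with other genes and 5 shared over 25%: Acat2, Idi1, Fdps, Ggps1 and Fdft1. The fit was also run on simulated data, in which the noise of each gene was drawn independently. The outcome of that run is not reported here. Alternatives were relative log expression scaling, RPKM as deposited, a pseudocount of 1, no filter, the replicate block, limma-voom, protein-coding transcripts only, other sets of libraries and each library left out.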

Additional observations from a re-analysis of the deposited data

Results flagged for a closer look

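Differences between ions, tested directly in limma over the 12 libraries of a time, passed an adjusted p of at most 0.05 for many of the genes at 1 month. In 56Fe against 28Si mice the log2 differences of the isoprenoid and earlier genes were -1.43 for Mvd, -1.29 for Hmgcs1, -1.06 for Fdps, -1.02 for Idi1, -0.75 for Pmvk, -0.74 for Acat2 and -0.67 for Mvk. Those of the later genes were -0.81 for Sqle, -0.79 for Hsd17b7, -0.77 for Fdft1, -0.73 for Sc5d and -0.63 for Nsdhl. Among the regulators they were -1.41 for Insig2, -0.78 for Insig1 and -0.53 for Srebf2, which was not called against control. Pmvk, Acat2, Nsdhl and Srebf2 were each lost without some single library, and the other 11 were not.

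In 16O against 28Si mice of 1 month the log2 differences were -1.39 for Hmgcs1, -1.37 for Mvd, -0.92 for Pmvk, -0.74 for Acat2, -0.74 for Idi1, -0.67 for Fdps and -0.60 for Mvk. They were -0.88 for Fdft1, -0.80 for Sqle, -0.76 for Sc5d, -0.73 for Hsd17b7 and -0.52 for Tm7sf2 in the later steps, and -1.90 for Insig2 and -0.998 for Insig1. Acat2, Idi1, Mvk and Tm7sf2 were each lost without some single library, and the other 10 were not. Of these 10, Fdps (limma adjusted p = 0.0514) and Sqle (0.0740) were lost in a fit of all 60 libraries. Idi1 (0.0758) and Mvk (0.0574) were lost there too. Both sets of differences use the same 3 28Si mice.

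Insig2 gave the other differences. It was higher after 56Fe than after 28Si at 4 months, by 1.24, and the effect of 56Fe on it changed by -1.76 between 4 and 9 months, both past limma's test. Clock and fasting genes differed in the same comparisons: 56Fe against 28Si at 4 months gave 1.70 for Arntl and 1.75 for Fgf21, and the change of the 56Fe effect was -2.71 for Arntl and -4.66 for Fgf21. Their part in the Insig2 values was not tested.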

How the results depend on the processing

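The 26 single-gene results recomputed here were the calls of an ion against control and 2 Insig2 results. The latter were 56Fe against 28Si at 4 months and the change of the 56Fe effect from 4 to 9 months. Calls between ions at 1 month, of the mean of the ions and between times in control mice were not among the 26. The direction of the fitted value was the same in all 388 recomputed values, of which 282 stayed on their side of the threshold and 106 no longer passed. Of the 51 counts of called genes, 39 stayed within 1.5 times the reported count under all alternatives. Most of these 39 were counts of 0 that stayed at 0. Every count above 0 for an ion against control moved under some alternative. The counts above 0 that did not move were 15 for 56Fe against 28Si and 14 for 16O against 28Si at 1 month. So did the single Insig2 calls in 56Fe against 28Si at 4 months and in the 56Fe effect from 4 to 9 months stay. At 1 month, RPKM as deposited gave 6 genes for 56Fe (14 reported), 4 for 16O (7 reported) and 0 for 28Si (1 reported). With no filter 16O gave 4 and the mean of the 3 ions 2 (5 reported). Limma-voom gave 15 for 16O, and a fit of the 12 libraries of the time gave 11. A fit of all 60 libraries gave 9 for 56Fe at 1 month, 0 for 56Fe at 4 months and 0 for the mean of the ions at 1 month. For 56Fe at 9 months (1 reported), 0 genes were called with RPKM as deposited, with no filter, with protein-coding transcripts only and in fits of 12 or 60 libraries. A fit of the 15 control libraries alone gave 1 gene between 4 and 9 months, where 0 is reported. The causes were not tested.

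With 1 library left out, the counts ran from 6 to 14 for 56Fe, 2 to 9 for 16O, 0 to 1 for 28Si and 1 to 8 for the mean of the ions at 1 month. They ran from 0 to 1 for 56Fe at 4 months, 0 to 2 for 56Fe at 9 months and 0 to 1 for 56Fe against 16O at 2 months. In control mice they ran from 6 to 11 between 2 and 4 months and 0 to 1 between 9 and 12 months. The change of effect between 9 and 12 months gave 0 to 1 gene for 16O (1 without 16O replicate 2 at 9 months) and 0 to 1 for 28Si (1 without 28Si replicate 3 at 9 months).

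Equal replicate numbers are not said to pair mice. Deviations of mice with the same number correlated from -0.575 to 0.519 over the 15 comparisons, and all 3 pairs exceeded 0.1 for 16O at 12 months and in no other comparison. With the replicate block, 16 genes were called for 16O at 1 month, 11 for 56Fe at 1 month, 0 for 56Fe at 4 months, 2 for 56Fe at 9 months and 2 for the mean of the ions at 1 month. Counts near the filter are limited by depth, and with 3 mice per group small changes can be missed. The protein-coding setting for comparisons between ions, between times and of the mean of the ions was chosen after the data were seen, as was the count for 16O at 12 months without 16O replicate 2. That count was 15 genes below every control library (11.2% of all genes), against 10 with the library (4.87% of all genes). Leaving out an irradiated library can only keep or raise such a count, so the rise carries no information.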
